A study of Mus musculus with 20 samples.

Results

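The data described here come from 10 wild-type (WT) mice whose whole brains were taken at postnatal day 21 (P21, 3 weeks, 5 mice) or postnatal day 70 (P70, 10 weeks, 5 mice). These 10 libraries were chosen by genotype from the 20 of the series, whose other 10 came from Katnal2 knock-out (KO) mice of the same ages, again 5 per age. All 20 mice were males on the C57BL/6J strain, and the KO mice carry a deletion in Katnal2, which codes for a relative of the microtubule-severing enzyme katanin, made with a cell-permeable Cre in fertilized eggs. The comparison of P70 with P21 in WT mice describes normal brain maturation between weaning and young adulthood, and each brain was sampled at a single age, so no mouse was followed over time. Mice were weaned at around P21, and the labels give no litter, sequencing date or other batch, so age and any batch that went with it cannot be told apart.

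Between weaning and adulthood the mouse brain changes in several known ways. Oligodendrocytes arise from dividing precursors and wrap axons in myelin, a membrane rich in cholesterol that is made largely within the brain. Neurons finish their outgrowth, swap growth-related cytoskeletal proteins for adult ones, and refine synapses, ion channels and the matrix around them, while vessels and meninges stop growing. Whole-brain RNA mixes all these cells, so in each result given here fewer cells of a type and less RNA per cell cannot be told apart.

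The values are normalized counts, that is, reads assigned to a gene after scaling for library depth, so they compare mice for a given gene and not genes with each other. They summed to between 27494451 and 28113106 in each of the 10 WT mice. The spacing of the low values put the depth at about 28700000 to 36000000 reads at P21 and 23700000 to 26400000 at P70, so the P70 libraries were shallower and depth and age cannot be told apart for genes near the detection limit. P70 replicate 5 stood apart from the other WT mice. The SD of its log2 deviations from the mean of the 10 WT mice was 0.492, against 0.289 to 0.369 in the other 9 mice. These deviations include the difference between ages. Each list count given here was also computed without P70 replicate 5 and without every other mouse. Traces of neighbouring tissue varied among mice at both ages. Gh, the pituitary growth hormone gene, stood at 1811 in P21 replicate 2 and at most 89.5 in the other 9, and the summed level of the 6 tested Hox genes, which mark hindbrain and spinal cord, ran from 26.4 to 295.5 at P21 and from 28.2 to 179.1 at P70. Neither the 6 tested pituitary genes nor the Hox genes passed the test of age. The libraries carried the markers of the labelled tissue. Snap25, a synaptic protein of neurons, had a mean of 52700 at P21 and 62730 at P70, Gfap of astrocytes 5124 and 5337, and Ttr of the choroid plexus 14400 and 16370.

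Of 17630 genes with a mean of at least 10 over the 10 mice, 815 were higher at P70 and 828 were lower at an adjusted p under 0.05 (limma on log2(normalized count + 1), two-sided, Benjamini-Hochberg over all genes tested). That is 9.32% of the genes tested, 4.62% higher and 4.7% lower. A change of over 1.5-fold on the same scale was found for 242 of the higher genes (1.37%) and 330 of the lower genes (1.87%). The median log2 fold change over all genes was 0.0015, with quartiles of -0.15 and 0.15. In 916 genes (5.2%) every P70 mouse lay above every P21 mouse and in 988 (5.6%) every P70 mouse lay below, together 10.8% of the genes tested, and 1327 genes met this and the adjusted p. Without P70 replicate 5 the counts rose to 1569 higher (8.89%) and 1431 lower (8.11%), and 1622 of the 1643 genes called with all mice were called again. Without P21 replicate 4 they fell to 414 and 498. Without P21 replicate 1, 541 genes were higher, and without P70 replicate 2, 542.

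**Figure D1:**
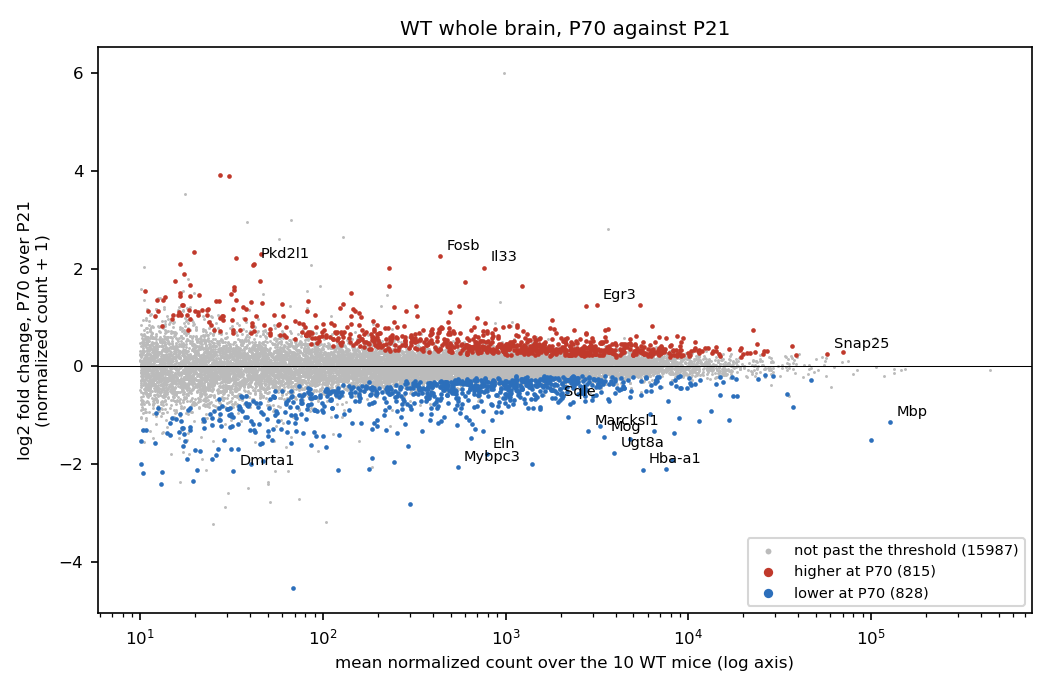
Each point is 1 of the 17630 genes tested in WT whole brain. The x axis is the mean normalized count over the 10 mice on a log axis and the y axis is the log2 fold change of P70 over P21 on the normalized count + 1 scale. The 815 genes past the threshold and higher at P70 are red and the 828 lower are blue. Mbp, a myelin gene, has the highest mean of the genes that passed the test and lies below 0.

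The falls named here are the largest among called genes with a common name and a mean of at least 50 in the higher age. Non-overlapping ages were also required, so the lack of overlap was set by the choice. Without these limits the largest called fall was 23.1-fold. Apart from red cell genes and elastin, described further on, the named genes were of several kinds. Dmrta1, a transcription factor of the doublesex family, had a log2 fold change of -2.14 and Rab7b, a small GTPase of the endosome, of -2.12. Casr, the calcium-sensing receptor, fell from 74.7 ± 21.3 to 18.6 ± 5.90 (mean ± SD, n = 5 at each age). Mybpc3 stood at 905.1, 944.2, 909.8, 972.8 and 674.6 at P21 and at 157.5, 190.4, 256.8, 236.4 and 212.8 at P70. It is best known as a sarcomere protein of the heart. Its ages did not overlap, and it was 4.19-fold lower at P70 (log2 fold change -2.07, SE 0.14, adjusted p 1.48e-06).

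A long noncoding RNA without a common name, 9630013A20Rik, was left out by the rule that chose named genes and was picked after its values were seen. It lies on chromosome 14 at 84458639 to 84476424 on the minus strand (GRCm38, GENCODE M21) and is annotated as antisense. It stood at 436.9, 591.8, 499.2, 616.5 and 468.2 at P21 and at 51.5, 69.0, 109.7, 128.9 and 40.8 at P70. Its ages did not overlap, and it was 7.02-fold lower at P70 (adjusted p 3.23e-05). The library kit does not mark strand, so reads of this gene and of any gene opposite it cannot be told apart.

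The largest rises under the same limits were of other kinds, and Fosb, Egr3 and Hspa1b among them are described further on. Without these limits the largest called rise was 15.1-fold. Il33, an alarmin of the interleukin-1 family that the nuclei of glia hold, stood at 287.0, 317.0, 327.5, 224.2 and 360.5 at P21 and at 1376, 1194, 1337, 1091 and 1117 at P70. The 2 ages did not overlap, and Il33 was 4.06-fold higher at P70 (log2 fold change 2.02, SE 0.12, adjusted p 6.44e-07). Pkd2l1, an ion channel of neurons that contact the cerebrospinal fluid, rose from 15.95 ± 6.89 to 68.1 ± 16.5 (log2 fold change 2.09, adjusted p 0.000454). Serpinb1a, a protease inhibitor, rose from 77.5 to 208.9, Ntn5, a netrin, from 47.2 to 119.0, Wnt10a, a Wnt ligand, from 74.6 to 183.5, and Slc4a11, a membrane transporter, from 25.9 to 66.6. All of these were non-overlapping between ages, which their choice required. Ppp1ccb, which rose from 119.6 to 340.6, is a near copy of the phosphatase gene Ppp1cc, so its reads may be split between them and its change is uncertain. It did not pass the test when all 20 mice were fitted together (adjusted p 0.0593).

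Myelin genes made up the most abundant group that fell. Of 31 tested genes of mature oligodendrocytes, 18 were lower at P70 and 4 were higher, and their median log2 fold change was -0.83 against 0.0015 over all genes. Leaving out any 1 mouse left 17 to 19 lower. The 4 higher genes dropped to 1 without P21 replicate 4. The summed level of the list ran from 470500 to 532900 at P21 and from 224000 to 254300 at P70, so the ages did not overlap.

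Mbp, myelin basic protein, stood at 155700, 181700, 187700, 177000 and 173000 at P21 and at 84210, 71950, 75390, 75430 and 89970 at P70. Every P70 mouse lay far below every P21 mouse, and Mbp was 2.21-fold lower at P70 (log2 fold change -1.14, SE 0.076, adjusted p 1.48e-06). Mog, a protein of the outer myelin surface, fell from 5077 ± 279.4 to 1874 ± 206.8. Mag, the adhesion protein that faces the axon, fell from 12030 ± 472.6 to 5776 ± 571.8. Cnp, an enzyme of uncompacted myelin, fell from 22710 to 10680, Mal, a proteolipid of membrane sorting, from 15680 to 7236, Mobp from 47880 to 26900, and Cldn11, the tight junction claudin of myelin, from 11950 to 4678. The adjusted p of these 6 genes ran from 2.87e-07 for Mog to 8.69e-06 for Mobp.

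Ugt8a and Gsn also fell. Ugt8a makes galactocerebroside, a main myelin lipid, and stood at 5712, 6087, 5959, 6564 and 5926 at P21 and at 2133, 1994, 1809, 2120 and 1066 at P70. The lowest value was that of P70 replicate 5, and the log2 fold change was -1.77 with that mouse and -1.59 without it. Gsn, gelsolin, which severs actin filaments, fell from 7066 ± 416.5 to 2508 ± 193.0 and had the smallest adjusted p of all genes tested (1.38e-07).

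Other genes of the same cells rose or did not pass the test. Qdpr, an enzyme that recycles tetrahydrobiopterin, rose from 2604 ± 472.7 to 4351 ± 497.9 and its ages did not overlap (log2 fold change 0.75, adjusted p 0.00171). Anln rose from 1070 to 1450 and Ndrg1 from 2702 to 3384, but neither passed the test without P21 replicate 4 (adjusted p 0.0594 and 0.0519). Myrf, the transcription factor that drives myelin gene expression, had means of 2821 and 2543 with an adjusted p of 0.264. Trf, transferrin, had means of 9380 and 8677 with an adjusted p of 0.607. Apod, a lipid carrier, had a mean of 4076 at P21 and of 5343 at P70 with an adjusted p of 0.147, and its highest value, 7729, was in P70 replicate 5.

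Genes of the precursors and newly differentiating cells of the same lineage were also lower. Of 28 tested genes of this list, 17 were lower at P70 and 0 were higher, and all 28 had a negative log2 fold change with a median of -0.52. Ugt8a, given above, is among these 17. Leaving out any 1 mouse left 17 or 18 lower and 0 higher. Gpr17, a receptor of cells that are about to mature, stood at 4189, 5277, 3880, 5479 and 4062 at P21 and at 1868, 1748, 1991, 2374 and 1818 at P70. The ages did not overlap, and Gpr17 was 2.33-fold lower (adjusted p 2.79e-05). Enpp6, a marker of newly formed oligodendrocytes, fell from 948.6 ± 108.5 to 349.3 ± 80.2 (log2 fold change -1.47), and Bmp4, a secreted factor of the same stage, from 173.6 ± 32.7 to 88.5 ± 19.7. Fyn, a kinase of process outgrowth, fell from 4444 to 2788. Pdgfra, the growth factor receptor of dividing precursors, fell less. It stood at 1950, 1875, 1836, 2006 and 1964 at P21 and at 1319, 1286, 1495, 1496 and 1167 at P70, with a log2 fold change of -0.52 (SE 0.077, adjusted p 0.00115). Vcan, a proteoglycan of precursors and matrix, had a log2 fold change of -0.76. The lineage transcription factors Olig1, Olig2 and Sox10 had log2 fold changes of -0.62, -0.47 and -0.59. Sox10 overlapped between ages because P70 replicate 5 stood at 1775 while the other 4 P70 mice lay between 1015 and 1307.

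**Figure D2:**
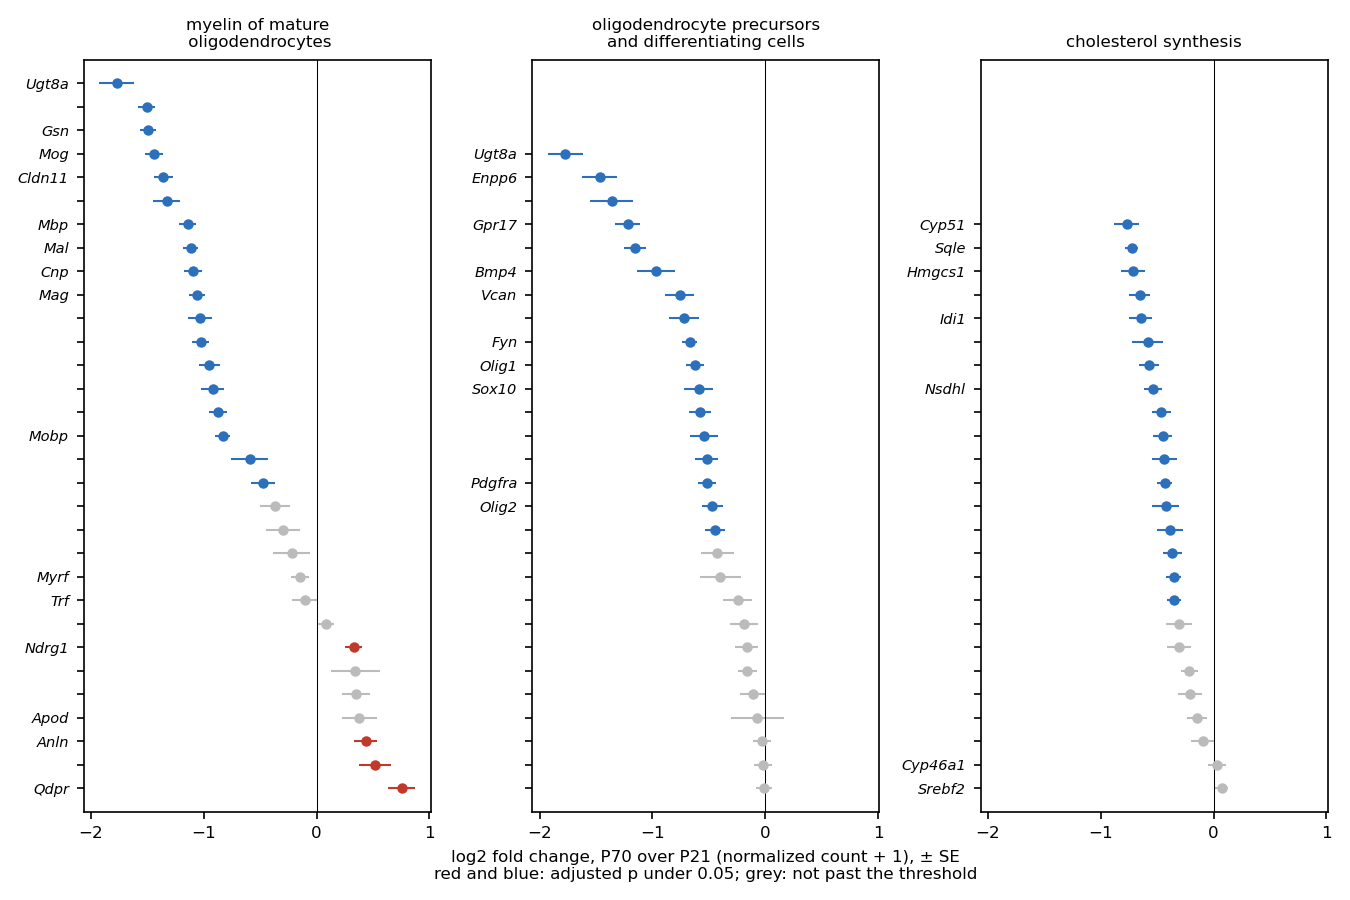
Log2 fold change of P70 over P21 on the normalized count + 1 scale, with its SE as a bar, for every tested member of 3 lists in WT mice. Blue and red mark genes lower and higher at an adjusted p under 0.05 and grey marks the rest, and labels name the genes given in the text. In the myelin list 18 of 31 are blue, in the precursor list 17 of 28 and in the cholesterol list 17 of 25.

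Genes of cholesterol synthesis were lower at P70 as well. Brain cholesterol is made from acetyl-CoA along a pathway whose genes are switched on by SREBP-2, and much of the cholesterol made in the growing brain goes into myelin. Of 25 tested genes of the pathway and its control, 17 were lower at P70 and 0 were higher, with a median log2 fold change of -0.43. The number lower ran from 13 to 20 when each mouse was left out in turn. The summed level ran from 57670 to 59860 at P21 and from 43800 to 48150 at P70.

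Sqle, squalene epoxidase, stood at 2302, 2368, 2481, 2441 and 2461 at P21 and at 1447, 1510, 1448, 1479 and 1396 at P70. Both ages were tight and did not overlap, and Sqle was 1.66-fold lower (log2 fold change -0.73, SE 0.057, adjusted p 7.37e-06). Cyp51, which removes a methyl group from lanosterol, fell from 2818 ± 244.1 to 1665 ± 297.4. Hmgcs1, which makes HMG-CoA, stood between 9107 and 9926 at P21, and at P70 at 5974, 6419, 6359 and 6506 in replicates 1 to 4 and 4128 in replicate 5. Its log2 fold change was -0.72 with all mice and -0.59 without P70 replicate 5. Idi1, an isomerase of the middle of the pathway, had a log2 fold change of -0.65, and Nsdhl, a sterol dehydrogenase, of -0.54. The gene of the regulator itself, Srebf2, had means of 6343 and 6665 with an adjusted p of 0.475. Cyp46a1, with which neurons turn cholesterol into an exported form, had means of 5294 and 5438 with an adjusted p of 0.859.

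Promoter sequence is shown for genes of 2 lists, cholesterol synthesis and DNA replication, because the same short element was frequent in both. A CCAAT box (letters CCAAT, searched on both strands, so also as ATTGG) was present in the window from 250 bases before to 50 bases after the start of 5298 of the 12477 tested genes with a RefSeq window, 42.5%. It was present in 17 of the 18 cholesterol synthesis genes with a window, and in 11 of the 12 of these that were lower at P70. The sterol regulatory element searched as TCACNCCAC was present in 1.4% of the tested genes and in 1 of the 18. The last 150 bases before the start are given for 3 cholesterol genes that were lower at P70, 5′ to 3′ on the strand of the gene, with each match in capitals.
Cyp51: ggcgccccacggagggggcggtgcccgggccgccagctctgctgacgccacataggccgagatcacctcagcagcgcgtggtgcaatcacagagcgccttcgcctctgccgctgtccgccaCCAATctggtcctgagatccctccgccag
Hmgcs1: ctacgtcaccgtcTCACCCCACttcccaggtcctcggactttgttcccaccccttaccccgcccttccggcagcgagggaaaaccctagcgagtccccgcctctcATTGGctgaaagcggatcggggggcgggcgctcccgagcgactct
Nsdhl: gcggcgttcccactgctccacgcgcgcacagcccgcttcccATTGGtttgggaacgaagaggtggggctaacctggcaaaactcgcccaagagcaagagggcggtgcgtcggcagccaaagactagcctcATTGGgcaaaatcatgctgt
These windows are from RefSeq on GRCm38.p6. That of Cyp51 is chr5:4104698-4104847 on the minus strand and that of Hmgcs1 is chr13:119690201-119690350 on the plus strand. That of Nsdhl is chrX:72918371-72918520 on the plus strand. The CCAAT box begins 29 bases before the start in Cyp51, 45 in Hmgcs1, and 109 and 20 in Nsdhl. The sterol element of Hmgcs1 begins 137 bases before the start. A match is a description of the letters in a window and was not tested as a site of binding. The genes printed here were taken from called genes that hold a CCAAT box in these bases. Its presence in the printed sequences was thus set by the choice and is not a result.

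Some genes of dividing cells were lower at P70, and most of the list did not pass the test. Cell division in the brain after weaning is mostly that of oligodendrocyte precursors and of the stem cell niches. Of 38 tested genes of DNA replication and mitosis, 7 were lower, 1 was higher and 30 did not pass, with a median log2 fold change of -0.22. The share called was 21.1%, against 9.32% of all genes tested. The number lower was 4 without P21 replicate 4, without P21 replicate 5 or without P70 replicate 2, and up to 9 otherwise. Mki67, which marks cycling cells, stood at 136.2, 87.7, 106.6, 142.1 and 113.4 at P21 and at 48.2, 63.8, 57.7, 95.6 and 53.6 at P70. The ages overlapped in P70 replicate 4 alone, and the log2 fold change was -0.89 (SE 0.19, adjusted p 0.0111). Top2a, which untangles replicated chromosomes, fell from 85.8 ± 21.8 to 46.9 ± 5.81, and Kif11, the motor that separates spindle poles, from 78.9 ± 6.78 to 46.9 ± 2.89. The exception was Mcm2, a helicase subunit of replication origins, which had means of 105.8 at P21 and 144.8 at P70 (adjusted p 0.0285). It was not past the threshold in 5 of the 10 fits that left out a mouse.

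The CCAAT box was also present in 24 of the 31 genes of this list with a window, and in all 6 of those called. The cell cycle homology region (letters TTTGAA, on either strand, so also TTCAAA), an element known from genes switched on before mitosis, was present in 15 of the 31 against 14.5% of the tested genes. The last 150 bases before the start are given for 3 called genes, chosen by the same rule as the cholesterol genes, with both elements in capitals. The presence of a CCAAT box in these 3 was thus set by the choice.
Kif11: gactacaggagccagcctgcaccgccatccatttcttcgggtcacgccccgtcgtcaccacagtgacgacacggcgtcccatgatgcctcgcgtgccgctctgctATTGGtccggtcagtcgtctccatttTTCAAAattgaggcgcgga
Mki67: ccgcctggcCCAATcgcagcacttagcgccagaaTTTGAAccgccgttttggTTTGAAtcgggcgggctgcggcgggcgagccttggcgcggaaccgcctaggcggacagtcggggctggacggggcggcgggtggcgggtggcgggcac
Top2a: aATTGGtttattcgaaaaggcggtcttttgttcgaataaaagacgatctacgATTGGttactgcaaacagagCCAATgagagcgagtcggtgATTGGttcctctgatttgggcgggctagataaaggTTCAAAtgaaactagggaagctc
Kif11 is at chr19:37376232-37376381 on the plus strand, Mki67 at chr7:135716380-135716529 on the minus strand and Top2a at chr11:99024190-99024339 on the minus strand. Top2a holds 4 CCAAT boxes, which begin 149, 98, 78 and 58 bases before the start, and a cell cycle homology region at 23. In Kif11 the CCAAT box begins at 45 and the other element at 19. Mki67 holds 1 CCAAT box at 141 and 2 of the other element at 116 and 98. Among the myelin genes, 10 of 21 with a window held a CCAAT box (47.6%), and 7 of the 16 of these that passed the test (43.8%), near the 42.5% of all tested genes. Among 21 immediate early genes with a window, described further on, 6 held one. Searches for 4 more elements are given for completeness. The E2F sites TTTCCCGC and TTTGGCGC were present in 3 and 4 of the 31 replication genes with a window, against 2.12% and 1.02% of the tested genes. The cAMP response element TGACGTCA was present in 3 of the 21 immediate early genes (3.33% of the tested genes) and the CArG box in 1 (1.64%).

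Some genes of immature neurons were lower as well. Of 30 tested, 11 were lower and 0 were higher, with a median log2 fold change of -0.24, and 10 to 12 were lower when each mouse was left out in turn. Marcksl1, an actin regulator of growing neurites, stood at 3719, 3909, 4222, 4540 and 3832 at P21 and at 1649, 1546, 1585, 1689 and 1606 at P70. Its ages were far apart, and it was 2.50-fold lower (log2 fold change -1.32, SE 0.067, adjusted p 1.69e-07). Dcx, doublecortin, which marks migrating young neurons, fell from 1388 ± 285.0 to 820.1 ± 188.9, and the ages did not overlap (log2 fold change -0.77, adjusted p 0.0142). Sox4, a transcription factor of newborn neurons, had a log2 fold change of -0.58, and Neurog2, which starts neurogenesis, fell from 31.4 ± 4.85 to 13.1 ± 4.74.

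Cytoskeletal genes moved in part the same way. Tuba1a, the main alpha tubulin of growing neurons, stood at 38280, 38470, 45020, 44560 and 40770 at P21 and at 28190, 26990, 27040, 26980 and 29480 at P70, without overlap (log2 fold change -0.58, adjusted p 0.000144). The beta tubulins Tubb2a and Tubb2b had log2 fold changes of -0.61 and -0.54. These tubulin genes are close in sequence and could share reads. Mapt, which codes for the axonal protein tau, rose from 12250 ± 630.1 to 14840 ± 390.1 (log2 fold change 0.28, adjusted p 0.00751). Of 37 neurofilament, tubulin and microtubule-associated protein genes, 5 were lower and 1 was higher, a share of 16.2% against 9.32% of all genes tested. Without P70 replicate 5, 10 were lower and 3 higher. Tuba1a is counted both in this list and in that of immature neurons. Tubb3, the neuronal beta tubulin, had means of 11590 and 10160 (adjusted p 0.122) and passed the test without P70 replicate 5 (0.0109). Nefh, the heavy neurofilament, had means of 3627 and 4063 (adjusted p 0.402). Gap43, a growth cone protein, had means of 5374 and 5064 (adjusted p 0.566). Of 47 axon growth and guidance genes, 5 were lower and 2 were higher, and 8 were lower without P70 replicate 5. The share called with all mice was 14.9%, and the 4.26% higher was near the 4.62% of all genes tested. The 2 higher genes dropped to 1 without P21 replicate 3, P21 replicate 5 or P70 replicate 4.

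**Figure D3:**
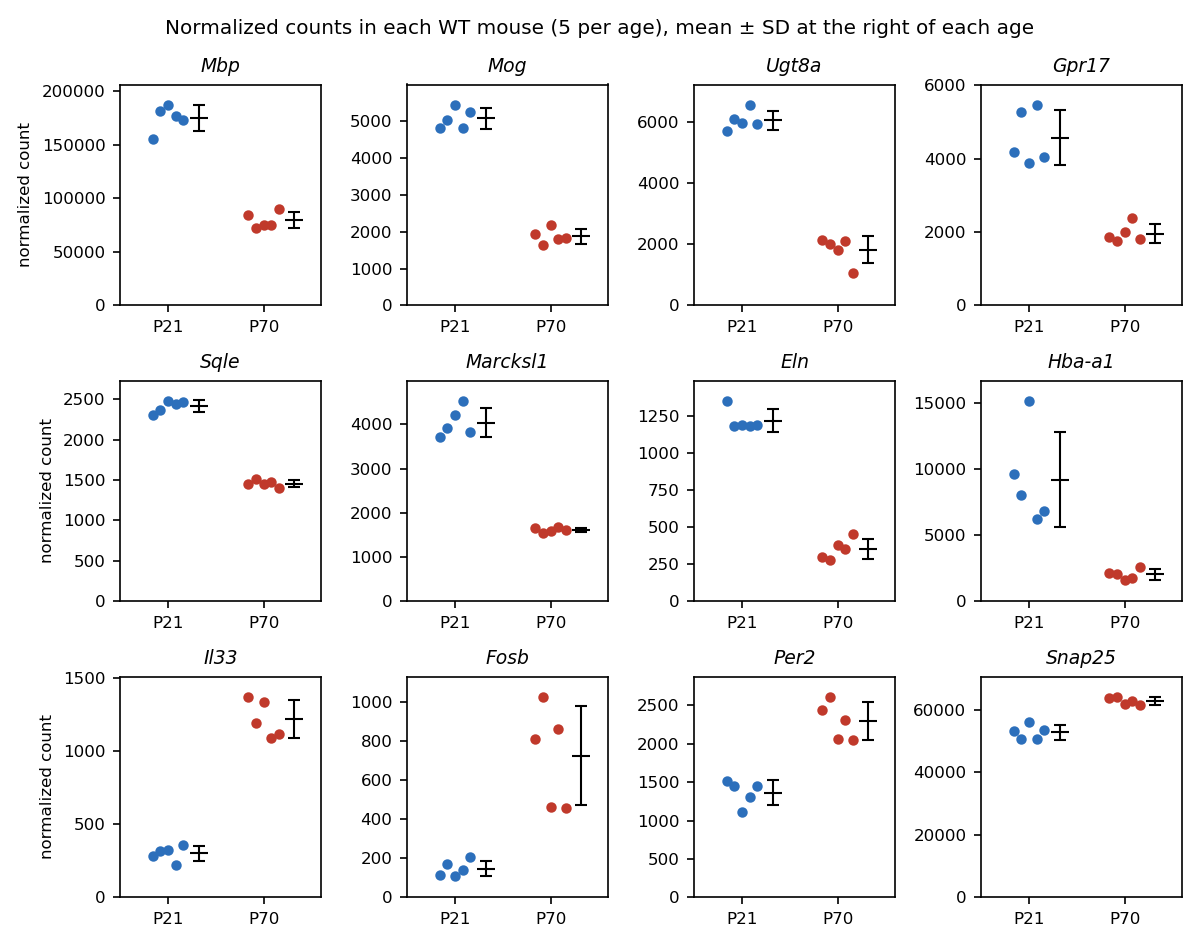
Normalized counts of 12 genes in each WT mouse, 5 mice per age, on a linear axis that starts at 0, with P21 in blue and P70 in red. The black bar at the right of each age is the mean ± SD. The ages do not overlap in any of the 12 genes, which the choice of Eln, Hba-a1, Il33 and Fosb required. The spread relative to the mean is widest for Hba-a1 at P21 and Fosb at P70.

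Part of the matrix and vessel genes were lower at P70. Of 41 tested collagen, laminin and other matrix genes of meninges and vessels, 13 were lower and 1 was higher, with a median log2 fold change of -0.25, and 12 to 16 were lower when each mouse was left out in turn. Eln, elastin of the arterial wall, stood at 1357, 1184, 1194, 1182 and 1191 at P21 and at 301.6, 282.9, 382.0, 356.1 and 453.8 at P70. The ages did not overlap, which the choice of Eln required, and it was 3.48-fold lower (log2 fold change -1.80, SE 0.12, adjusted p 1.25e-06). Col3a1, a fibrillar collagen, stood at 496.5, 445.6, 502.0, 387.4 and 360.1 at P21 and at 135.0, 98.2, 118.0, 243.6 and 135.4 at P70, a log2 fold change of -1.64. Col1a1, the main collagen of meninges, fell from 667.6 ± 102.5 to 422.9 ± 18.95, and Nid1, which links laminin to collagen in the basement membrane, from 906.8 ± 109.8 to 401.8 ± 39.4 (adjusted p 1.63e-05). The gene that rose was P4ha1, a collagen-modifying enzyme, from 999.8 ± 92.1 to 1427 ± 257.1.

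Of 29 tested endothelial and pericyte genes, 7 were lower and 0 were higher, a share of 24.1% against 9.32% of all genes tested. The number lower was 4 without P21 replicate 3 or without P21 replicate 4, and 11 without P70 replicate 5, and 1 was higher without P70 replicate 3. Kdr, the VEGF receptor that drives vessel growth, stood at 444.5, 505.7, 420.2, 680.2 and 419.9 at P21 and at 255.0, 203.4, 196.2, 125.3 and 213.8 at P70. The ages did not overlap, and it was 2.50-fold lower (adjusted p 0.000584). Slco1a4, a transporter of the blood-brain barrier, had a log2 fold change of -0.70 and Rgs5, a pericyte marker, of -0.50. Slc16a1, which carries lactate and ketone bodies across the barrier, fell from 1274 ± 150.6 to 826.4 ± 86.5. Cldn5, the tight junction protein of brain endothelium, had means of 836.0 and 579.7 and an adjusted p of 0.0967. Replicate 5 stood at 967.8 at P70 while the other 4 lay between 354.5 and 710.0, and without it the adjusted p was 0.00395.

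Genes of the hemoglobin and red cell list had the largest median fall of the 41 lists. Of 10 tested, 8 were lower and 0 were higher, with a median log2 fold change of -1.81, and 7 or 8 were lower when each mouse was left out in turn. The alpha globin Hba-a1 stood at 9679, 8059, 15210, 6271 and 6840 at P21 and at 2118, 2110, 1623, 1754 and 2644 at P70, and was 4.32-fold lower (adjusted p 4.33e-05). P21 replicate 3 was the highest, and the ages did not overlap, which the choice of this gene required. Hba-a2 had a log2 fold change of -2.09, and the beta globins Hbb-bs and Hbb-bt of -1.91 and -2.01. The members of each globin pair are nearly identical, so reads may be split between them. Alas2, the heme synthesis enzyme of red cell precursors, fell from 390.4 ± 96.1 to 100.8 ± 25.8. Globin transcripts are best known from red cells and are also known from some neurons and glia. The summed level of the list ran from 34440 to 72090 at P21 and from 15110 to 18230 at P70, beside the fall in endothelial genes, and the part of blood in the other results was not tested.

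Immediate early genes, which neurons switch on within minutes of activity, were in part higher at P70. Of 27 tested, 10 were higher and 0 were lower, with a median log2 fold change of 0.59, and 8 to 15 were higher when each mouse was left out in turn. Fosb stood at 115.3, 170.3, 109.9, 138.5 and 205.9 at P21 and at 811.9, 1029, 462.4, 862.0 and 460.6 at P70. Every P70 mouse lay above every P21 mouse, which the choice of Fosb required. Fosb was 4.75-fold higher (log2 fold change 2.25, SE 0.24, adjusted p 8.93e-05). Egr3, a zinc finger transcription factor, stood at 1709, 2101, 1514, 1587 and 2101 at P21 and at 5584, 5246, 3598, 5701 and 2300 at P70. Replicate 5 lay just above the P21 mice, as the choice of Egr3 required. The adjusted p was 0.00287 with replicate 5 and 3.79e-05 without it. Arc, a synaptic protein of plasticity, rose from 3378 ± 1582 to 7555 ± 1698, with overlap between ages. Fos varied widely within each age, from 277.7 to 1024 at P21 and from 622.3 to 1578 at P70, and its adjusted p was 0.128.

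Some genes of the circadian clock and of stress responses were also higher. Of 20 clock genes, 7 were higher and 0 were lower, with a median log2 fold change of 0.21, and 3 were higher without P21 replicate 4. Per2, a repressor of the clock, stood at 1512, 1443, 1108, 1301 and 1449 at P21 and at 2443, 2612, 2063, 2305 and 2050 at P70, without overlap (log2 fold change 0.75, SE 0.097, adjusted p 0.000398). Bhlhe40, which both the clock and neuronal activity induce, rose from 2134 ± 329.1 to 3398 ± 289.5. Dbp, a clock output gene with a strong daily rhythm, had means of 1711 and 1797 with an adjusted p of 0.869. Of 25 genes of the glucocorticoid and heat shock responses, 7 were higher and 0 were lower, and 5 to 8 were higher when each mouse was left out. Without P70 replicate 5, 3 were lower. The heat shock gene Hspa1b stood at 228.8, 296.5, 239.5, 224.2 and 222.8 at P21 and at 1470, 1639, 350.8, 793.5 and 497.4 at P70. Every P70 mouse was above every P21 mouse, which the choice of Hspa1b required. The P70 mice themselves spanned a wide range (log2 fold change 1.73, SE 0.34, adjusted p 0.00743). Its near-identical neighbour Hspa1a, with which it may share reads, rose from 301.2 ± 32.5 to 805.0 ± 444.7, and the small heat shock gene Hspb1 from 142.1 ± 24.7 to 349.9 ± 129.8. Sgk1, a kinase induced by glucocorticoids, had means of 3807 and 5126 (adjusted p 0.00737), but it did not pass the test when all 20 mice were fitted together (0.249). Pdk4, which holds back glucose oxidation, rose from 293.6 ± 49.3 to 482.3 ± 88.0. The hour at which each brain was taken is not given in the sources used here, so its part in these results was not tested.

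**Figure D4:**
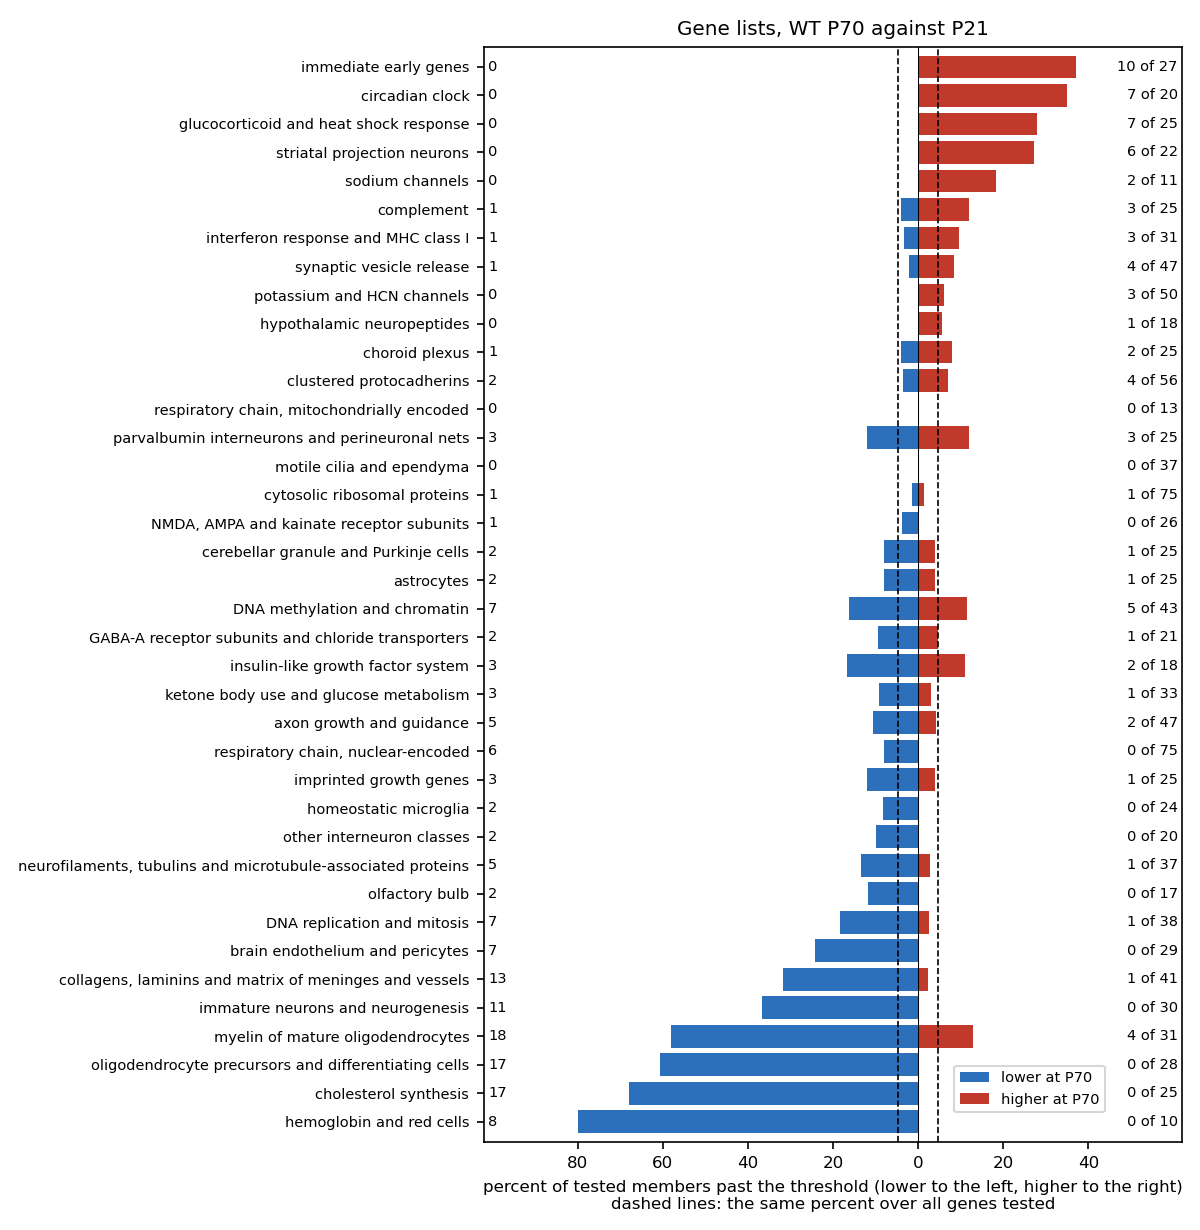
Percent of the tested members of each list that were lower (blue, to the left) or higher (red, to the right) at P70 in WT mice at an adjusted p under 0.05, for the lists with at least 10 tested members. Numbers at the left are members lower and at the right members higher of those tested, and the dashed lines are the percent over all genes tested, 4.7% lower and 4.62% higher. The hemoglobin, cholesterol, precursor, myelin and immature neuron lists lie farthest to the left and the immediate early and clock lists farthest to the right.

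Of 47 genes of synaptic vesicle release, 4 were higher and 1 was lower, with a median log2 fold change of -0.032. The share called was 10.6%, near the 9.32% of all genes tested. Without P70 replicate 5, 7 were higher and 4 were lower. The single lower gene, Slc17a7, which loads glutamate into vesicles, had an adjusted p of 0.0485 and was past the threshold in 1 of the 10 fits that left out a mouse. Rims3, a scaffold of the release site, rose from 5471 ± 450.8 to 8286 ± 507.2 (log2 fold change 0.60, SE 0.071, adjusted p 0.000209). Bsn, bassoon, a large scaffold of the same site, rose from 14730 ± 1383 to 18670 ± 835.7. Snap25, a core protein of vesicle fusion, stood at 53120, 50510, 55890, 50450 and 53530 at P21 and at 63660, 64140, 61750, 62600 and 61480 at P70, a 1.19-fold rise without overlap (adjusted p 0.0103). After quantile normalization its adjusted p was 0.0859.

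Receptor genes stayed mostly short of the threshold. Of 26 NMDA, AMPA and kainate receptor subunits, 1 was lower and 0 were higher, a share of 3.85% against 9.32% of all genes tested. The lower gene was the kainate receptor subunit Grik1, which fell from 591.1 ± 52.1 to 441.2 ± 27.1. Without P70 replicate 5, 3 were higher. The NMDA receptor subunit Grin2a, whose share of the receptor is known to grow after birth, stood at 4909, 4577, 3629, 4752 and 4245 at P21 and at 5140, 5843, 5994, 6231 and 3923 at P70. The overlap came from P70 replicate 5, and the adjusted p was 0.168 with it and 0.00758 without it. Grin2b, the subunit that prevails early, had means of 11850 and 12320 with an adjusted p of 0.923. Of 21 GABA-A receptor, glycine receptor and chloride transporter genes, 2 were lower and 1 was higher, a share of 14.3%. The higher call was lost without any 1 of the other 9 mice, while 3 were higher without P70 replicate 5, and 1 was lower without P21 replicate 4. Glra2, the glycine receptor subunit of the immature brain, stood between 520.1 and 659.2 at P21 and between 310.2 and 442.3 at P70, a log2 fold change of -0.51.

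Of 50 potassium and HCN channels, 3 were higher (6%, near the 4.62% of all genes tested) and 0 were lower. Without P70 replicate 5, 9 were higher and 1 was lower. Of 11 sodium channel genes, 2 were higher and 0 were lower, and 1 was higher in 8 of the 10 fits that left out a mouse. With all mice 18.2% were higher, against 4.62% of all genes tested. Scn4b, a subunit that supports resurgent current, rose from 5255 ± 525.0 to 6712 ± 410.5. Of 22 genes of striatal projection neurons, 6 were higher and 0 were lower, but 1 or 2 were higher without P21 replicate 2, P21 replicate 3, P21 replicate 4 or P70 replicate 1. Ptpn5, a striatal-enriched tyrosine phosphatase, stood at 4959, 4502, 4666, 4635 and 4658 at P21 and at 6382, 5846, 5898, 6174 and 7258 at P70, without overlap (adjusted p 0.00163).

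Of 25 genes of parvalbumin interneurons and perineuronal nets, the lattice that encloses these cells as they mature, 3 were higher and 3 were lower. The share called was 24%, against 9.32% of all genes tested. The number lower was 1 without P21 replicate 2, P21 replicate 4 or P21 replicate 5, and 5 were higher without P70 replicate 5. Hapln4, a link protein of the net, rose from 2799 ± 375.5 to 3890 ± 311.7, and Nptx1, a pentraxin that gathers AMPA receptors, from 8997 ± 636.9 to 12640 ± 904.4. The lower genes included Vcan, given above, and Has2, with log2 fold changes of -0.76 and -1.99 (adjusted p 0.00258 and 0.0148). Has2 did not meet the limits set for the largest falls, so its ages overlapped or its mean at P21 was under 50. Pvalb itself stood at 2306, 2455, 2769, 2118 and 2512 at P21 and at 2717, 2503, 2386, 2195 and 3526 at P70. The ages overlapped, and the adjusted p was 0.572.

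The chromatin, growth and metabolic lists held calls in both directions. The share called was 27.9% in the chromatin list and 27.8% in the insulin-like growth factor list. It was 16% in the imprinted list and 12.1% in the ketone and glucose list, against 9.32% of all genes tested. Of 43 DNA methylation and chromatin genes, 7 were lower and 5 were higher. When each mouse was left out in turn, 3 to 10 were lower and 2 to 9 were higher, with the highest counts without P70 replicate 5. Dnmt3a, the methyltransferase that writes DNA methylation in young neurons, stood at 4906, 5339, 4359, 5423 and 4496 at P21 and at 3321, 3555, 3595, 3777 and 3215 at P70, without overlap (log2 fold change -0.49, SE 0.076, adjusted p 0.00156). Chd5, a neuronal chromatin remodeller, rose from 7327 ± 220.8 to 9063 ± 417.3. Of 18 genes of the insulin-like growth factor system, 3 were lower and 2 were higher (1 higher without any 1 of 7 mice), and of 25 imprinted growth genes 3 were lower and 1 was higher. Without P70 replicate 5 there were 5 higher in the growth factor system and 5 lower and 2 higher among the imprinted genes. Igfbp3, a binding protein that holds insulin-like growth factors, fell from 860.8 ± 138.1 to 399.5 ± 26.5 (log2 fold change -1.09, adjusted p 4.33e-05), while Igfbp6, another member of the family, rose from 320.1 ± 57.1 to 564.3 ± 110.7. H19, an imprinted noncoding RNA of growing tissue, fell from 48.1 ± 16.3 to 14.3 ± 5.76. Igf2, its imprinted neighbour, had means of 2908 and 2699 with an adjusted p of 0.575, and 0.0364 without P70 replicate 5. Of 33 genes of ketone body use and glucose metabolism, 3 were lower and 1 was higher, and 7 were lower without P70 replicate 5. Oxct1, which lets the suckling brain burn ketone bodies, fell from 10500 ± 505.2 to 7780 ± 612.5 (log2 fold change -0.44).

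Among immune genes, 16% of the complement list, 12.9% of the interferon and MHC class I list and 8.33% of the microglial list were called. The share over all genes tested was 9.32%. Of 25 complement genes, 3 were higher and 1 was lower, and 1 was higher without any 1 of 6 mice. Masp1, a protease of the lectin pathway, fell from 461.9 ± 33.7 to 305.2 ± 18.0. C1ra rose from 33.9 ± 7.91 to 61.6 ± 11.9. C4b, a complement component of astrocytes, stood at 420.3, 536.8, 524.1, 485.9 and 556.5 at P21 and at 687.5, 625.3, 643.4, 637.2 and 1160 at P70. The ages did not overlap, but its adjusted p of 0.0453 rose past 0.05 in 9 of the 10 fits that left out a mouse, and fell to 0.0104 without P70 replicate 5. Of 31 interferon and MHC class I genes, 3 were higher and 1 was lower. Only 1 was higher without P21 replicate 4, and the lower call was lost in 8 of the fits that left out a mouse. Tap2, a peptide transporter of antigen presentation, rose from 143.4 ± 16.3 to 238.4 ± 43.7, while B2m, the light chain of MHC class I, had means of 1514 and 1470 with an adjusted p of 0.847. Of 24 microglial genes, 2 were lower and 0 were higher, and neither was called without P21 replicate 3, P21 replicate 4 or P70 replicate 4. In 5 of the other fits 1 was lower. The 3 tested genes of neutrophils and T cells gave 0 calls.

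In the remaining lists the share called lay above or below the 9.32% of all genes tested. It was 12% in each of the choroid plexus, astrocyte and cerebellar lists. Olfactory bulb genes had 11.8%, protocadherins 10.7% and other interneurons 10%. The share was 8% in nuclear respiratory chain genes, 5.56% in neuropeptides, 2.67% in ribosomal genes, and 0% in motile cilia and mitochondrially encoded genes. Of 25 choroid plexus genes, 2 were higher and 1 was lower. The number higher was 4 without P70 replicate 4 and 1 in 6 of the other fits that left out a mouse. Kl, klotho, a choroid plexus protein, rose from 428.9 ± 77.1 to 689.8 ± 116.9. Of 37 genes of motile cilia and ependyma, 0 passed in either direction with all mice, while 2 were higher without P70 replicate 1 and 1 was lower without P70 replicate 5. Of 25 astrocyte genes 2 were lower and 1 was higher, and of 25 cerebellar genes 2 were lower and 1 was higher. Of 17 olfactory bulb genes 2 were lower, of 20 genes of other interneurons 2 were lower (4 lower and 1 higher without P70 replicate 5), and of 18 hypothalamic neuropeptide genes 1 was higher. The same gene, Calb2 (log2 fold change -0.41), is among the lower genes of the cerebellar, olfactory bulb and other interneuron lists. Of 56 clustered protocadherins, whose transcripts share exons within a cluster, 4 were higher and 2 were lower. Of 75 cytosolic ribosomal protein genes 1 was higher and 1 was lower. Of 75 nuclear genes of the respiratory chain 6 were lower, 67 had a negative log2 fold change and the median was -0.15. That count of 6 was 28 without P70 replicate 5 and 0 without any 1 of 5 other mice. Of the 13 mitochondrially encoded genes 0 passed, and 1 was lower without P70 replicate 5. A count in each of the astrocyte, cerebellar, neuropeptide, protocadherin and ribosomal lists moved by over 1.5 times without any 1 of at least 4 of the mice.

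The change with age was also measured in the 5 P21 and 5 P70 KO mice, which share no sample with the WT mice. In these mice 667 genes were higher at P70 (3.78%) and 800 were lower (4.53%), together 8.32% of the 17641 tested. Of the 1638 genes called in WT that had a KO value, 1628 had the same sign in KO (99.4%), against 79.8% of all genes. The genes called in both with the same direction numbered 958, which is 58.3% of the WT calls and 65.3% of the KO calls, and 0 were called in opposite directions.

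**Figure D5:**
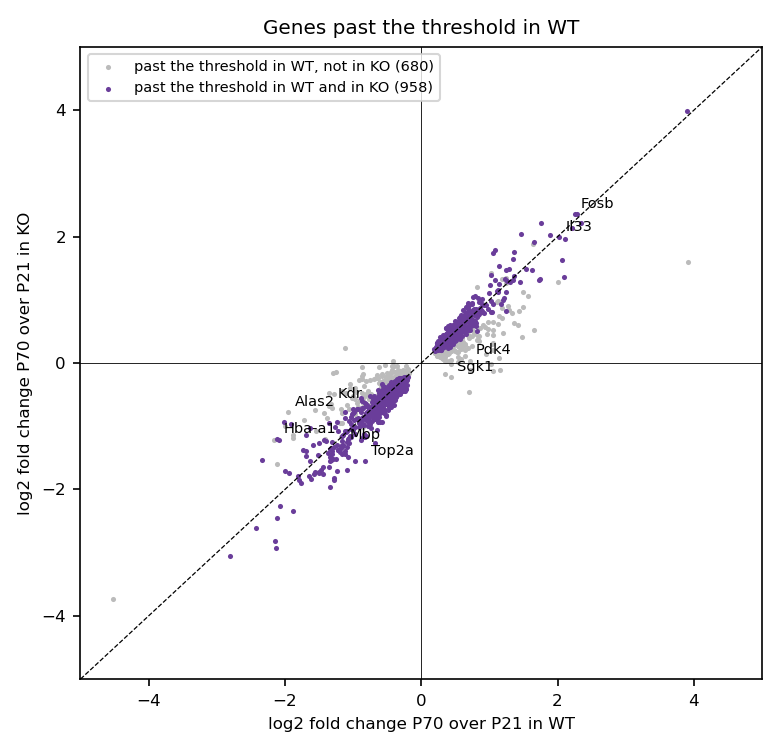
Log2 fold change of P70 over P21 in WT mice (x axis) and in KO mice (y axis) for the 1638 genes past the threshold in WT with a KO value. Purple marks the 958 that also passed in KO, and the dashed line is equality. Nearly all points lie in the lower left and upper right quadrants, where 1628 genes have the same sign. The genes were chosen by their WT test, so WT and KO values do not stand on an equal footing.

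The difference between genotypes in the change with age was tested as an interaction over all 20 mice. Of 17637 genes, 0 passed an adjusted p of 0.05 with limma, the smallest adjusted p was 0.435, and 296 had an unadjusted p under 0.05 (1.68%). In the other fits tried, 0 passed as well and 182 to 665 had an unadjusted p under 0.05. Katnal2 itself, the gene deleted in KO mice, is on chromosome 18 at 76977148 to 77047308 on the minus strand. It stood at 113.4, 100.2, 115.4, 99.3 and 108.5 in P21 WT mice and at 109.8, 141.5, 101.3, 125.1 and 132.5 in P70 WT mice, with overlap and an adjusted p of 0.405. Its means in KO mice were 89.0 ± 8.72 at P21 and 105.1 ± 11.8 at P70. Gene-level counts include reads from outside the deleted exon, so they are a weak check of the KO labels.

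The change in each genotype is given for 4 genes of the groups described above. Mbp had a log2 fold change of -1.14 in WT and -1.30 in KO (interaction -0.15, SE 0.16). Il33 had 2.02 and 1.99 (interaction -0.028, SE 0.20), Fosb 2.25 and 2.36 (0.11, SE 0.36) and Sqle -0.73 and -0.70 (0.026, SE 0.070). Wider gaps were seen in 5 blood, vessel and stress genes, which were picked for this after their values were seen, and none of them passed the adjusted test. Hba-a1 had a log2 fold change of -2.11 in WT and -1.20 in KO (interaction 0.91, SE 0.36). Alas2 had -1.95 and -0.78 (1.17, SE 0.34) and Kdr -1.32 and -0.65 (0.68, SE 0.29). Pdk4 had 0.71 in WT and 0.04 in KO (-0.67, SE 0.22), and Sgk1 0.44 and -0.23 (-0.67, SE 0.32). The adjusted p of the interaction was 1 for each of these genes, which does not show that the genotypes age alike.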

How the data were processed

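Whole-brain RNA was sequenced from WT and Katnal2-KO males of the C57BL/6J strain, aged P21 or P70, with 5 mice in each of 4 groups taken from the labels. The authors made the deposited signal values, which are Salmon estimates per gene normalized with DESeq2 (normalized counts), from libraries of a TruSeq kit that does not mark strand. The submitters' processing notes name Salmon 1.1.0, R 3.6.2, DESeq2 1.26.0 and the GRCm38 build. The paper's methods give other versions of R and DESeq2. The values are not whole reads, so a count test was not used. Of 19463 genes, 19447 matched a symbol and position in GENCODE M21. Whether genes had been removed from the table before deposit is not given in the sources used here.

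WT P70 was compared with WT P21 in genes whose mean reached 10, on log2(value + 1). The linear fit and its moderation with an intensity trend came from limma 3.58.1 (R 4.3.3), and the interaction used all 20 mice. Fold changes are on that scale and understate the change of low genes. The fit was also run on simulated data with independent normal noise for each gene and mouse. These data held no outlying mouse such as P70 replicate 5, so they do not test its effect. The members, the 41 gene lists (1222 genes, 1147 tested) and the named genes were chosen with earlier results of these data known. Some genes, such as Calb2, Tuba1a and Pdk4, are in more than 1 list, so the list counts are not independent of each other. Named genes were the 10 with the largest change in each direction among called, non-overlapping genes with a mean of at least 50 in the higher age and a common name, the 2 with the smallest p per list and direction, members of gene families, and a short set of markers. Only some of them are given in the text, and some members are counted in their lists but not reported here. Alternatives were other pseudocounts (0.25 and 5), filters (1, 50 and none), no trend, robust priors, recomputed size factors, quantile normalization, all 20 mice, a replicate block, a threshold of 0.01 and each mouse left out. Depth was estimated from the value of 1 read (0.772 to 0.968 at P21 and 1.05 to 1.18 at P70). The labels do not say that mice of a group came from separate litters, so p-values measure the spread between these mice.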

Additional observations from a re-analysis of the deposited data

Results flagged for a closer look

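Within an age, 18 of 228 groups of 5 values (114 genes at 2 ages) held a mouse far from the other 4 by Dixon's test, and chance gives about 1 in 20. In 9 of the 18 the mouse was P70 replicate 5. It was highest for Apod at 7729, Cyp46a1 at 6675, Tubb3 at 11660, C4b at 1160, Chd5 at 9797 and Nefh at 5191, and lowest for Hmgcs1 at 4128, Glra2 at 310.2 and Oxct1 at 6729. P21 replicate 2 was highest for Hspa1b at 296.5 and C1ra at 47.9. P21 replicate 5 was lowest for Mybpc3 at 674.6 and highest for P4ha1 at 1161. The rest were Eln at 1357 (high) in P21 replicate 1, Sgk1 at 2963 (low) in P21 replicate 4, Hbb-bt at 393.2 (low) in P70 replicate 3, Col3a1 at 243.6 (high) in P70 replicate 4 and Scn4b at 5993 (low) in P70 replicate 2.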

How the results depend on the processing

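The counts of genes higher and lower stayed within 1.5 times their values under other pseudocounts, filters, priors, normalizations and the fit of all 20 mice. At a threshold of 0.01 on the adjusted p, 254 genes were higher and 349 lower, and 116 and 207 of over 1.5-fold. Leaving out each mouse in turn gave 414 to 1569 higher, 498 to 1431 lower, 162 to 272 over 1.5-fold higher, 246 to 395 over 1.5-fold lower, and 982 to 1657 higher and 1069 to 1496 lower without overlap between ages, with the highest counts of calls without P70 replicate 5 (1569 and 1431) and the lowest without P21 replicate 4 (414 and 498). The interaction gave 0 genes in every fit. The cause of these shifts was not tested. For the 114 genes of the text, 2444 of 2501 alternative values kept the direction and the side of the threshold, 53 lost the call, 4 gained it and 0 changed direction. Replicate numbers are shared between ages, but same-numbered mice are different animals. Their deviations correlated between -0.11 and 0.16, and those of differently numbered mice between -0.26 and 0.36. These values cannot show whether same-numbered mice shared a litter or batch, which the labels do not give. With the replicate block 640 genes were higher and 625 lower, and Anln, Mcm2 and Slc17a7 lost the call (adjusted p 0.0548, 0.0636 and 0.127). Depth limits what can be said of genes near the minimum mean of 10, where 1 read is worth about 1 normalized count.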
